A study of Mus musculus with 2 samples.

Results

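The Hox cluster genes of the mouse were followed in adrenal gland RNA: 39 protein-coding genes whose symbol is Hox, a cluster letter from a to d and a number, out of 43346 Ensembl genes and 21474 protein-coding genes in the deposited gene tables. The tissue was adrenal gland of strain C57BL/6J, from an adult female of 10 weeks, and its polyA RNA was read in a pair of libraries. The labels make both libraries technical replicates of 1 biological sample, with replicate 2 made in May 2015, after the first. No label gives a treatment or a genetic change, so there is 1 group, and library, date and run cannot be told apart. Spread between animals is not measured by this pair.

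Hox genes encode homeodomain transcription factors that give cells of the embryo their position along the body axis. They sit in 4 clusters, and within each cluster genes of low paralog number act near the head and genes of high number act toward the tail, an order called colinearity. Many adult tissues keep a part of the code of the level at which they arose. In the adrenal, the cortex comes from coelomic epithelium of the trunk and the chromaffin cells of the medulla from trunk neural crest. Hox proteins bind DNA together with TALE homeodomain partners (Pbx, Meis and Prep), and a complex of Hox and TALE proteins is known at a fetal adrenal enhancer of Nr5a1, the master regulator of steroid-producing cells.

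On GRCm38, the Hoxa cluster lies at chr6:52155590-52260880 with 11 genes and the Hoxb cluster at chr11:96194316-96368256 with 10. The Hoxc cluster lies at chr15:102921103-103036852 and the Hoxd cluster at chr2:74668310-74765142, with 9 genes each. Hoxb is the widest, 174 kb against 96.8 to 116 kb for the other clusters, because Hoxb13 stands far from Hoxb9.

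Hoxb9, whose paralog group shapes the rib-bearing thoracic segments, was the highest Hox gene in both libraries, and its sequence is shown first for that reason. The last 60 bases of the homeobox, the stretch that encodes the DNA-binding homeodomain, are given 5′ to 3′ on the coding strand for Hoxb9 and its paralog Hoxc9, from the GENCODE M21 transcripts. Capitals mark the bases that differ from Hoxb9. The Hoxb9 stretch is at chr11:96274779-96274838 on the plus strand, and that of Hoxc9 is at chr15:102984050-102984109 on the plus strand.
Hoxb9: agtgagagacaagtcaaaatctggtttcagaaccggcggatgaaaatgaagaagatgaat
Hoxc9: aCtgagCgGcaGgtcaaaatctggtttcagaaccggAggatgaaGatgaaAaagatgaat
In this stretch Hoxc9 differs from Hoxb9 at 7 bases. Over the whole homeobox of 180 bases, 151 bases of Hoxc9 are the same as in Hoxb9. The longest run of identical bases between transcripts of Hoxb9 and Hoxc9 is 50. Across 733 pairs of Hox genes whose loci do not overlap, the longest shared run has a median of 15 bases and a maximum of 52, between Hoxa6 and Hoxb4. Among pairs with overlapping loci, Hoxd3 and Hoxd4 share 388 bases and Hoxc5 and Hoxc10 share 168, so the counts of those 4 genes are uncertain where the authors' counting could have split reads.

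The tissue carried the marks of adrenal gland. Of 6 cortex markers (such as Star, which brings cholesterol into the mitochondrion, and Cyp11b1, which makes corticosterone) 6 reached at least 1 TPM (a level corrected for transcript length and scaled to a fixed sum per library) in both libraries, with a summed TPM of 6965 in replicate 1 and 26462 in replicate 2. Of 6 chromaffin markers 5 did, with sums of 735 and 5485, and Pnmt, which makes adrenaline, had no count in replicate 1. The 9 kidney markers summed to 0.17 and 0.43 TPM, and 6 of them, Umod and Slc34a1 among them, were at 0 in both libraries. The sums of 5 skeletal muscle markers were 11.1 and 322 TPM, of 5 adipocyte markers 396 and 2851, of 8 capsule and stroma markers 160 and 316, and of 6 endothelial markers 97.0 and 397. Each of these sums was higher in replicate 2 in TPM. With TMM scaling, used for the library comparison further on, the direction turned for capsule and stroma alone. There the median log2 ratio of replicate 2 to replicate 1 was -0.35, with 2 called higher and 2 lower. The other tested lists had medians of 1.42 (cortex), 4.24 (chromaffin), 4.88 (muscle), 4.21 (adipocyte) and 1.297 (endothelium). With the trend on GC content removed, also described further on, these became 0.478, 0.904, 2.83, 1.32 and 0.371, and capsule and stroma 0.275. The part of these cell types in the Hox values was not tested. In bulk tissue, fewer cells of a type and less RNA per cell cannot be told apart.

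Library depth was 28267651 expected counts in replicate 1 and 17376660 in replicate 2, of which 13260900 and 14716667 came from nuclear genes outside the mitochondrial genes and their 15 nuclear copies. TPM has a fixed sum per library, so a library rich in mitochondrial RNA leaves less of it to other genes. The Hox genes together took 137 TPM and 8801 counts in replicate 1 and 372 TPM and 8504 counts in replicate 2. TPM was higher in replicate 2 for 25 Hox genes and in replicate 1 for 3, a tally that was not set against all genes. With TPM rescaled over nuclear genes the sum went the other way, 784 TPM in replicate 1 and 603 in replicate 2.

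Of the 39 Hox genes, 14 reached at least 1 TPM in both libraries, against 40.9% of protein-coding genes and 21% of all Ensembl genes. They were 8 of the 10 Hoxb genes (Hoxb2 to Hoxb9), 3 Hoxc genes (Hoxc4, Hoxc6 and Hoxc8), 2 Hoxa genes (Hoxa5 and Hoxa7) and 1 Hoxd gene (Hoxd8). Replicate 1 alone gave 14 and replicate 2 alone gave 18. With TPM rescaled over nuclear genes the number was 19, against 53.3% of protein-coding genes. The genes added on that scale were Hoxa2, Hoxa3, Hoxc5, Hoxd4 and Hoxd9. At 1 TPM without rescaling, the detected genes thus form a run from Hoxb2 to Hoxb9 and a few genes in the other clusters. On either scale they are all in paralog groups 2 to 9.

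Hoxb genes made up 72.5% of Hox TPM in replicate 1 and 76.8% in replicate 2 (74.7 ± 3.05, SD, n = 2 technical replicates). By counts, which grow with transcript length, their share was 72.8% in replicate 1 (exact 95% Clopper-Pearson interval 71.9 to 73.8) and 79.0% in replicate 2 (78.2 to 79.9). Such intervals cover counting error only. The shares of TPM in replicates 1 and 2 were 16.8% and 12.97% for Hoxc, 6.91% and 5.08% for Hoxd, and 3.82% and 5.13% for Hoxa. Hoxb led in each library, and by TPM Hoxa and Hoxd changed places between them. By counts they did not: Hoxd held 8.32% and Hoxa 3.60% in replicate 1, and 5.68% and 4.42% in replicate 2.

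**Figure D1:**
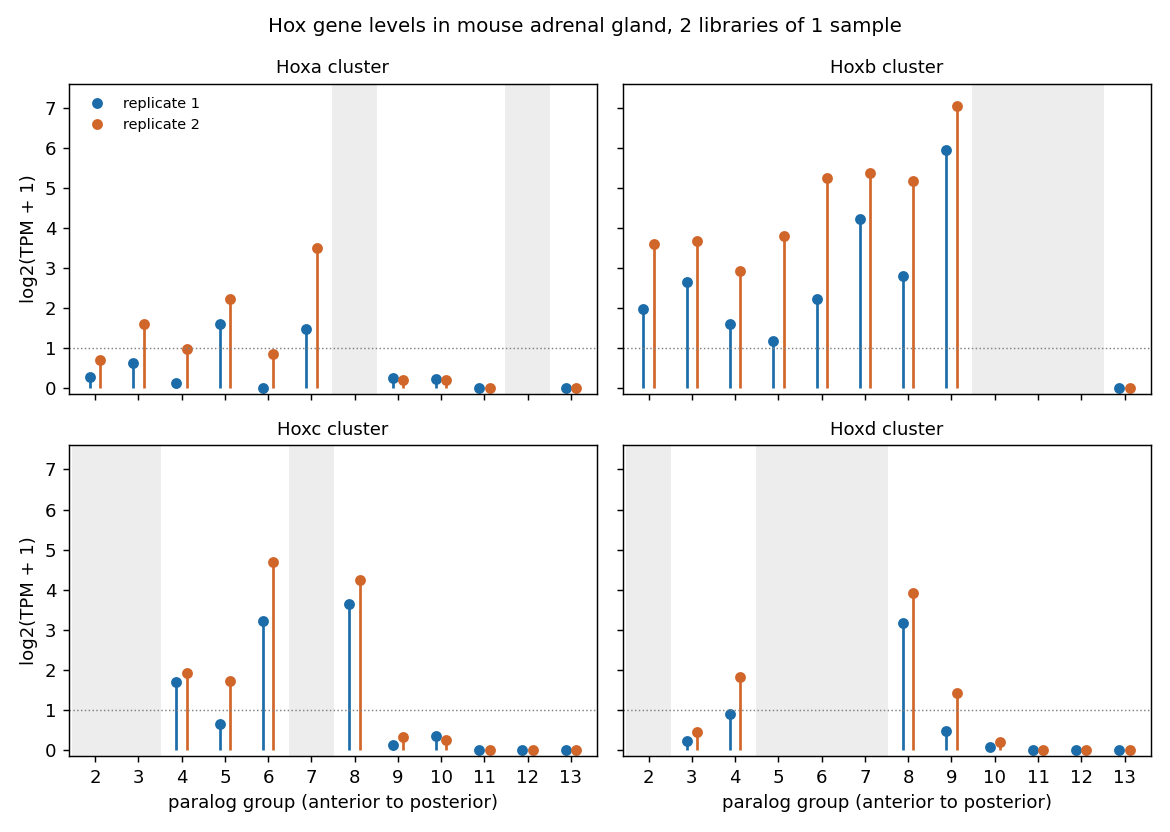
Each panel is a cluster; the x axis is the paralog group and the y axis is log2(TPM + 1), with blue points for replicate 1, orange points for replicate 2, grey where the cluster has no gene and a dotted line at 1 TPM; group 1 is not drawn. Hoxb2 to Hoxb9 stand above the line in both libraries, and every gene of groups 10 to 13 stands below it.

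Levels in the Hoxb cluster were highest at Hoxb9, and Hoxb7, Hoxb8 and Hoxb9 stood above Hoxb2 to Hoxb5 in both libraries. Hoxb9 (ENSMUSG00000020875.9; chr11:96271457-96276595) had 60.69 TPM in replicate 1 from 4197 counts and 130.50 TPM in replicate 2 from 3678 counts. It lay above 97.7% and 96.3% of protein-coding genes in the 2 libraries, and it held 44.2% and 35.1% of all Hox TPM (39.7 ± 6.47, SD, n = 2). The authors' interval around the posterior mean TPM ran from 57.3 to 60.8 in replicate 1 and from 117.6 to 125.7 in replicate 2, below the TPM value itself in replicate 2. Rescaled over nuclear genes, Hoxb9 had 347 TPM in replicate 1 and 212 in replicate 2, so which library is higher depends on what the level is measured against.

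Hoxb7, a thoracic-level gene next to Hoxb8, came second in both libraries, with 17.61 and 40.69 TPM in replicates 1 and 2. Hoxb6, active in trunk and limb mesoderm of the embryo, had 3.66 and 37.16 TPM. Hoxb8, which also marks myeloid progenitors, had 5.96 and 34.91 TPM. In TPM replicate 2 was the higher for each of these, and the distance between libraries was smallest for Hoxb7. Rescaled over nuclear genes, Hoxb7 was higher in replicate 1, with 100.7 TPM against 66.0. Hoxb5, a gene of the vagal level that gives rise to gut neurons, had 1.28 and 12.95 TPM. Hoxb3, a hindbrain-level gene, had 5.29 and 11.80 TPM, and Hoxb2, which patterns hindbrain segments and facial nerve neurons, had 2.92 and 11.10 TPM. Hoxb4, known for the expansion of blood stem cells, had 2.06 and 6.61 TPM and was the lowest detected Hoxb gene in replicate 2, while Hoxb5 was the lowest in replicate 1. No expression was detectable at either end of the cluster: Hoxb1 and Hoxb13 had no count in either library.

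In the Hoxc cluster the detected genes were Hoxc4, Hoxc6 and Hoxc8, with none above group 8. Hoxc8, which sets vertebral identity in the thorax and the identity of motor neurons to the forelimb, had 11.49 and 17.83 TPM from 763 and 391 counts. Hoxc6, also thoracic, had 8.35 and 24.88 TPM from 371 and 380 counts. Hoxc4 had 2.23 and 2.77 TPM from 133 and 63 counts, and the TPM of the 2 libraries lay closest together for it among the 14 detected genes. Between them, Hoxc5 had 51 and 79 counts and passed 1 TPM in replicate 2 alone (0.56 and 2.32 TPM). Hoxc9 had 7 counts in each library and Hoxc10, a lumbar-level gene, had 16 and 4.

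The Hoxa and Hoxd clusters contributed 3 detected genes. Hoxa5, required for lung and airway development, had 2.05 and 3.66 TPM from 115 and 77 counts. Hoxa7, a thoracic gene, had 1.80 and 10.29 TPM from 106 and 210 counts. Hoxd8 had 7.98 and 14.16 TPM from 633 and 376 counts and was the sole detected member of its cluster. Hoxa3, which the thymus and parathyroid need to form, had 43 and 39 counts and Hoxd4 57 and 58, and each passed 1 TPM in replicate 2 alone. Hoxd9 had 25 and 41 counts and likewise passed in replicate 2 alone.

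Other Hox genes with at least 10 counts in a library were near the lower limit. Hoxa2 had 11 and 12 counts, Hoxa4 had 4 and 17, Hoxa9 had 19 and 3, and Hoxd3 had 14 and 5. Hoxa6, Hoxa10, Hoxc9 and Hoxd10 had between 0 and 9 counts in a library. The remaining 11 genes had no count in either: Hoxa11, Hoxa13, Hoxb1, Hoxb13, Hoxc11, Hoxc12, Hoxc13, Hoxd1, Hoxd11, Hoxd12 and Hoxd13. For these, 3 counts, the limit that a count of 0 allows, would be 0.0385 TPM (Hoxd12) to 0.107 TPM (Hoxc12) in replicate 1 and 0.103 to 0.286 TPM for the same genes in replicate 2. The deposited upper bounds were higher for some of them, most of all for Hoxa13, with 0.447 TPM in replicate 1 and 1.14 in replicate 2. The limit of 3 counts covers counting error only, and a library can miss a gene for other reasons. Pnmt, with a GC content of 60.5%, had no count in replicate 1 and 4291 in replicate 2. Hoxc12 has a GC content of 62.3%.

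Summed by paralog group, levels were highest in group 9, lower toward the head end and near 0 beyond. Group 9 held 44.7% of Hox TPM in replicate 1 and 35.7% in replicate 2, group 8 held 18.5% and 18.0%, and group 7 held 14.2% and 13.7%. Group 6 held 8.75% and 16.9%, the largest difference in share between libraries after group 9. Groups 2, 3, 4 and 5 each held between 2.29% and 5.09%. Beyond group 9 few reads were found: the 12 genes of groups 10 to 13, which act at lumbar, sacral and tail levels and in the genital tract, had 28 counts in replicate 1 and 10 in replicate 2. All of those counts were in group 10, 0.38% and 0.13% of Hox TPM, and groups 11, 12 and 13 had none. Group 11 genes are needed for the kidney to form. The kidney markers above were at or near 0, and a link between these findings was not tested.

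**Figure D2:**
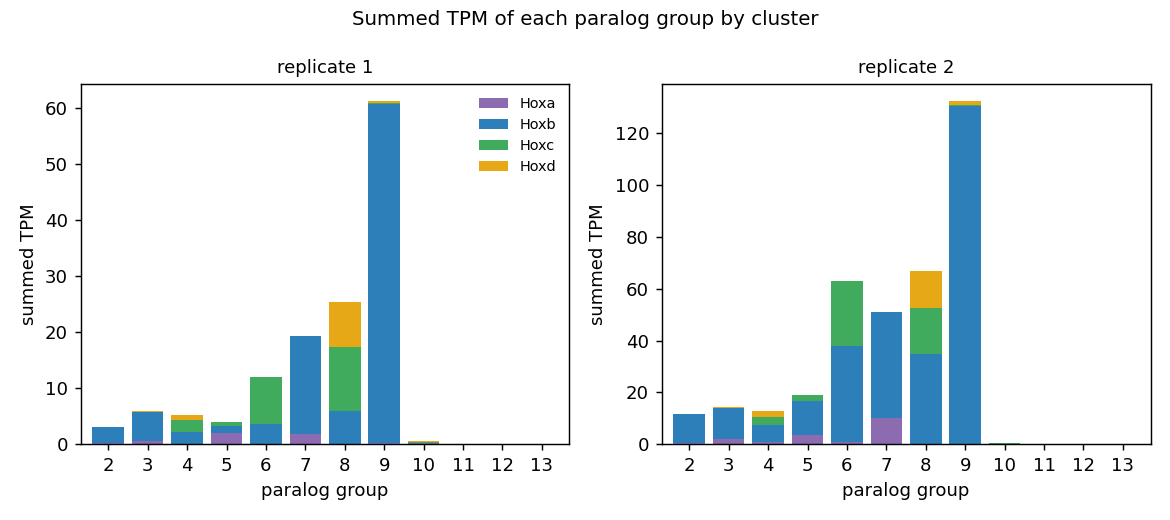
Bars give the summed TPM (y axis, a different range in each panel) of the genes of each paralog group (x axis), coloured by cluster, from group 2 on, for replicate 1 on the left and replicate 2 on the right. In both libraries the sum is highest in group 9, where nearly all of it is Hoxb9, and next to nothing is seen beyond it.

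Within paralog groups the leading cluster was clear in some and not in others. In group 9, Hoxb9 stood 156-fold above Hoxd9 in replicate 1 and 77.2-fold in replicate 2, while Hoxa9 and Hoxc9 were under 1 TPM in both libraries. Hoxb2 stood 13.3-fold and 17.3-fold above Hoxa2, Hoxb3 stood 9.62-fold and 5.78-fold above Hoxa3, and Hoxb7 stood 9.78-fold and 3.95-fold above Hoxa7. In groups 4, 5, 6 and 8 the order changed between the libraries. Replicate 1 was led by Hoxc4, Hoxa5, Hoxc6 and Hoxc8, and replicate 2 by Hoxb4, Hoxb5, Hoxb6 and Hoxb8. For these 4 groups the order of paralogs does not exceed the spread between technical replicates. Spearman's rho between the TPM of the 2 libraries was 0.955 over the 39 genes and 0.767 over the 14 detected genes, a description across genes, which are not independent.

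The transcripts of a Hox gene were assigned differently in the libraries. Of the 14 detected genes, 12 have more than 1 transcript in the tables, and for 3 of these the leading transcript changed. Hoxb9-201 (2574 nt) held 0.45% of Hoxb9 TPM in replicate 1 and 58.7% in replicate 2, with 21.6 and 2280 expected counts. Hoxb9-202 (2269 nt) held 99.5% and 41.3%, with 4175 and 1398 expected counts. The difference between them lies in exon 1. Hoxb9-201 includes 239 coding bases at chr11:96271820-96272058 on the plus strand that are spliced out of Hoxb9-202. Hoxb9-201 also begins 66 bases further upstream (72.7% G and C), so the transcripts differ in both places. The 239 bases are shown in capitals, 5′ to 3′, with 15 bases of the Hoxb9-201 transcript on each side in lower case, because they decide whether the homeobox stays in frame.
Hoxb9-201: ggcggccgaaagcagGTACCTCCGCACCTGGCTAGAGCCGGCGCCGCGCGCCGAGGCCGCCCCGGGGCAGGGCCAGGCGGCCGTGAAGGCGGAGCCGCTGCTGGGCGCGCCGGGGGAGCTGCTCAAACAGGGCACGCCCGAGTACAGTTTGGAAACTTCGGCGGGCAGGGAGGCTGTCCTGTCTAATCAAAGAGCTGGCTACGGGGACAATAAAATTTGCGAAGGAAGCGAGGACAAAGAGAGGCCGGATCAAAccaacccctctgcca
This stretch is 66.1% G and C, and the first exons as a whole have nearly the same content, 66.9% in Hoxb9-201 and 66.3% in Hoxb9-202. Exon 2, which both transcripts share and which holds the homeobox, has 48.4%. The length of the exon 1 stretch, 239 bases, leaves a remainder of 2 when divided by 3, so loss of the stretch shifts the reading frame. Hoxb9-201 has 750 coding bases with the homeobox in frame, and Hoxb9-202 has 408 without it. The transcript read as dominant in replicate 1 is thus annotated without a homeodomain, and that of replicate 2 with one.

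For Hoxc8 and Hoxb6, replicate 2 gave the larger share to the transcript with the GC-richer 5′ part. Hoxc8-202, annotated as a retained intron, held 90.3% of Hoxc8 TPM in replicate 1 and 22.3% in replicate 2, and the coding Hoxc8-201 held 9.74% and 77.7%. The first exon of Hoxc8-201, which Hoxc8-202 lacks, is 64.0% G and C, against 51.8% for the intron stretch that Hoxc8-202 keeps and 35.9% for its extra 3′ end. Hoxb6-202 held 100% in replicate 1 and 29.6% in replicate 2, and Hoxb6-201 went from 0 to 369 expected counts and 70.4%. Hoxb6-201 begins with an exon of 67.7% G and C, and Hoxb6-202 begins upstream with an exon of 45.5%. That first exon of Hoxb6-201 lies wholly within exon 2 of Hoxb6-202 (65.3% G and C), so its bases are in both transcripts, unlike in Hoxc8. Both Hoxb6 transcripts encode the same number of coding bases, 672, with the homeobox in frame.

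**Figure D3:**
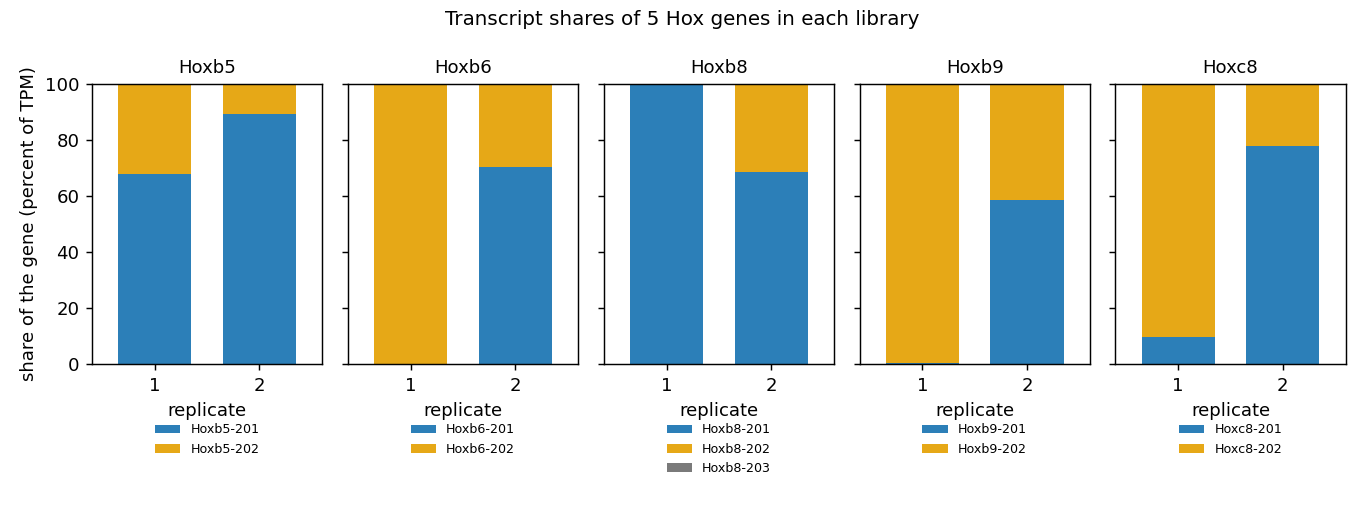
Stacked bars show the share of each transcript in its gene (y axis, percent of TPM) in replicates 1 and 2 (x axis) for Hoxb5, Hoxb6, Hoxb8, Hoxb9 and Hoxc8. The leading colour changes between replicates for Hoxb6, Hoxb9 and Hoxc8 and stays for Hoxb5 and Hoxb8.

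Other genes kept their leading transcript. Hoxb8-202 went from 0% to 31.6% of Hoxb8 TPM, beside Hoxb8-201. The annotated coding part of Hoxb8-202, 574 bases, does not end on a whole codon and holds no complete in-frame homeobox. That annotation may be incomplete. Hoxb5-201 went in share from 68.0% to 89.2%, and the retained intron Hoxb5-202 went from 32.0% to 10.8%. Hoxb3-202 led with 88.3% and 78.9%. Hoxa7 was led in both libraries by Hoxa7-205, annotated as a target of nonsense-mediated decay, with 75.5% and 72.2% of its TPM, while Hoxa7-201, which has the homeobox in frame, held 20.92% and 13.96%. No test was made of these shares, since there is 1 biological sample.

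For the library comparison, each gene's counts were set against TMM-scaled library sizes with a two-sided exact binomial test, and a gene was called at a Benjamini-Hochberg adjusted p under 0.05 over all 14358 genes tested and a fold of at least 2. The test compares these libraries, not conditions or animals. Its p-values, and the fold intervals given below, cover counting error only. They leave out the choice of scaling and other differences between the libraries. Of 22 Hox genes tested, 3 were called higher in replicate 2 (background 36.4%) and 6 lower (background 27.8%), and 13 were not called. The median log2 ratio of replicate 2 to replicate 1 was -0.40 over the tested Hox genes and 0.10 over all tested genes. Scaled by total count, which moved the median of all genes to 1.24, 8 Hox genes were called higher (background 54.1%) and 1 lower (background 3.95%), with a Hox median of 0.73.

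The genes called higher were Hoxb5, Hoxb6 and Hoxa4, with log2 ratios of 1.34, 1.07 and 1.53. Hoxb6 went from 216 to 613 counts (2.10-fold after scaling, exact 95% interval 1.80 to 2.47, adjusted p = 1.58e-22) and Hoxb5 from 85 to 291. The Hoxa4 call rested on 4 and 17 counts with an adjusted p of 0.0497 by the exact binomial test. It was lost with median-of-ratios factors, where the adjusted p was 0.0606.

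The genes called lower were Hoxa5, Hoxa9, Hoxc4, Hoxc8, Hoxc10 and Hoxd8. Hoxc8 went from 763 to 391 counts (log2 ratio -1.40, exact adjusted p = 9.42e-58), Hoxd8 from 633 to 376 (-1.18) and Hoxc4 from 133 to 63 (-1.51). Hoxa5 stood at the edge of the fold minimum with -1.01. Hoxa9 and Hoxc10, from few counts, had -2.91 and -2.31. Hoxb9 was lower in replicate 2 by less than the fold minimum, with a log2 ratio of -0.62 (0.649-fold, exact 95% interval 0.621 to 0.678, adjusted p = 3.59e-81). Its direct neighbour Hoxb8 had 0.28, and further along the cluster Hoxb7, Hoxb4, Hoxb3 and Hoxb2 had -0.65, -0.17, -0.74 and 0.12. The Hoxb genes thus spread on both sides of 0 within 1 cluster.

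GC content moved with these ratios. The tested Hox genes had a GC content of 47.6% (Hoxc8) to 61.0% (Hoxd9), with a median of 53.7% against 49.985% over all tested genes. Spearman's rho between GC content and the log2 ratio was 0.523 over the 22 genes, given as a description. With the trend of the ratio on GC content over all genes removed, 0 Hox genes were called higher (background 12.6%) and 17 lower (background 12.3%), and the Hox median became -2.13 against -0.03 over all genes. Of the 6 genes called lower before, 5 remained and 12 more were called lower. Hoxc8, the gene of lowest GC content, lost its call, going from -1.40 to -0.92, and it was not called by total count either (-0.26). By total count Hoxa9 alone of the 6 stayed lower. With the GC trend removed, Hoxb6 turned from higher to lower, from 1.07 to -2.05. Genes that lay on both sides of 0 before thus lay below 0 after, all 22 of them, and Hoxb9 went from -0.62 to -1.48.

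**Figure D4:**
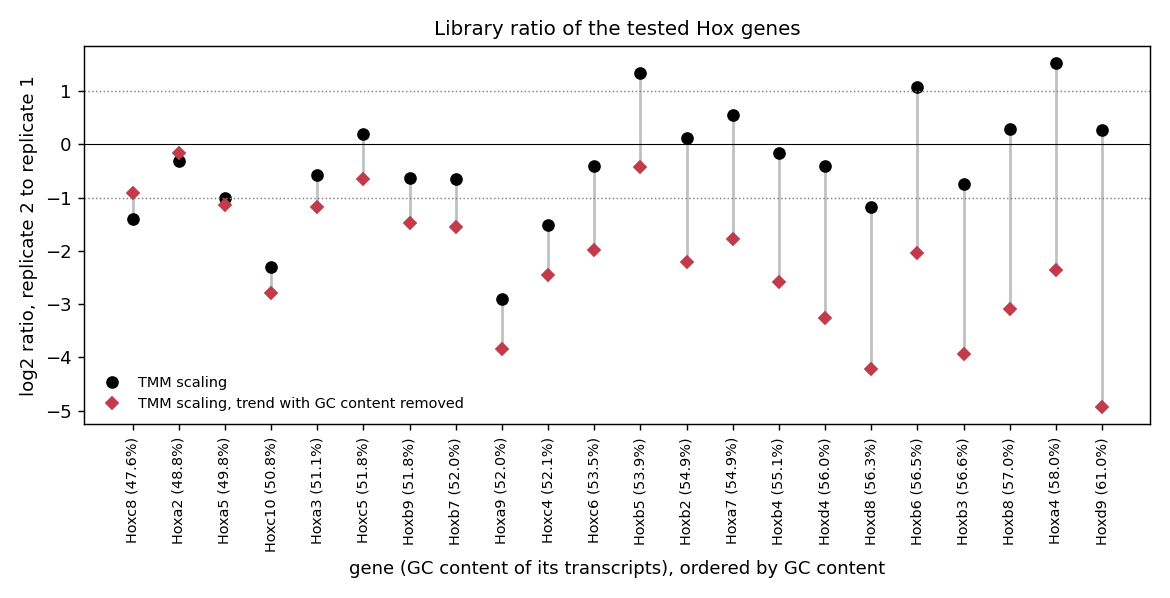
The y axis is the log2 ratio of replicate 2 to replicate 1 for the 22 tested Hox genes, ordered along the x axis by GC content; black circles use TMM scaling, red diamonds have the GC trend of all genes removed, and dotted lines mark a fold of 2. All 22 diamonds lie below 0. The distance between circle and diamond is the trend fitted over all genes at that GC content, so its widening toward the right follows from the fit.

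Most of the TALE partners of Hox proteins were present: of 9 TALE genes 6 were detected, against 40.9% of protein-coding genes. Meis2 had 69.25 and 110.25 TPM in replicates 1 and 2, Pbx3 had 41.70 and 87.83, and Meis1 had 7.37 and 18.75. Pbx4 was the lowest, with 0.06 and 1.08 TPM. In the library comparison 2 of 8 tested were called higher and 2 lower (among them Meis2 at -1.23), beside 36.4% and 27.8% of all genes. With the GC trend removed 0 were higher and 1 lower, beside 12.6% and 12.3% of all genes, with median log2 ratios of -0.03 and -0.26.

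Some genes that flank the clusters were well read and others had no count: of 9 neighbours 5 were detected (40.9% of protein-coding genes). Mtx2, a mitochondrial import protein beside Hoxd, had 43.73 and 57.67 TPM, Calcoco1, a coactivator beside Hoxc, had 27.81 and 72.39, Skap2, an adaptor beside Hoxa, had 11.94 and 32.20, and Lnpk, an endoplasmic reticulum protein beyond Hoxd, had 8.15 and 8.02. Evx1 and Evx2, homeobox genes at the tail end of Hoxa and Hoxd, had no count, nor had Ttll6 beside Hoxb. Genes next to the group 13 end of a cluster, where the Hox genes had no count, thus ranged from 0 (Evx1, Evx2 and Ttll6) to the level of Calcoco1. In the library comparison 1 neighbour was called higher and 2 lower of 6 tested (all genes 36.4% and 27.8%), and 1 and 1 with the GC trend removed (all genes 12.6% and 12.3%), with medians of -0.19 and 0.25.

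Of 42 genes annotated as not protein-coding inside the clusters, 32 had no count in either library and 4 had at least 10 in a library. Gm53, a long non-coding RNA gene at chr11:96251105-96264868 between Hoxb13 and Hoxb9, had 286 and 486 counts and 6.41 and 31.23 TPM. Hoxb5os, antisense across Hoxb5 and Hoxb6, had 2 and 74 counts and was the sole non-coding gene called higher (log2 ratio 4.46), a call it did not keep with the GC trend removed (1.20). Hoxb3os had 22 and 19 counts and Hoxd3os1 had 9 and 20. These antisense genes are uncertain, since use of strand in the counting is not given by the deposited notes, and without it their reads cannot be told apart from those of the Hox gene opposite. Hotair, in the Hoxc cluster among groups 11 and 12, and Hoxa11os had no count. With the GC trend removed, 0 of the 4 were called higher and 2 lower (all genes 12.6% and 12.3%), against 1 and 0 before (all genes 36.4% and 27.8%), with medians of 0.50 before and -0.70 after.

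Polycomb proteins hold Hox genes silent and trithorax proteins hold them active. Of 22 chromatin regulators, which include members of both groups and others such as Ctcf, 14 were detected (40.9% of protein-coding genes). Rnf2 and Bmi1, core proteins of Polycomb complex PRC1, had 42.32 and 38.43 TPM and 41.28 and 34.58 TPM, and Suz12 of PRC2 had 32.68 and 27.98. Cbx2 was the lowest, with 0.06 and 2.41 TPM. In the library comparison 9 of 22 were called higher and 6 lower, near the 36.4% and 27.8% of all genes. With the GC trend removed the counts were 0 and 5 (all genes 12.6% and 12.3%), and the median log2 ratio went from 0.84 to -0.28.

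Retinoic acid and Cdx factors switch on Hox genes in the embryo. The 3 Cdx genes had no count in either library. Of 11 retinoic acid genes 5 were detected (40.9% of protein-coding genes). Aldh1a2 and Aldh1a1, which make retinoic acid, had 11.33 and 47.32 TPM and 13.59 and 21.98 TPM, the receptor Rarg had 1.57 and 11.98, and Aldh1a3 had 1.85 and 7.30. The binding protein Crabp2 had no count. Of 9 tested, 5 were called higher and 1 lower (all genes 36.4% and 27.8%), against 1 and 3 with the GC trend removed (all genes 12.6% and 12.3%), with medians of 1.19 and -0.34.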

How the data were processed

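Both libraries are technical replicates of 1 sample, per the labels. Expected counts, the estimated fragments per gene and transcript, were deposited by the authors for each library, beside TPM and FPKM values named so in the deposited tables. The deposited posterior mean TPM and its bounds were treated as a score, and the share of a transcript in its gene is a deposited percent. The mm10 assembly and GENCODE M4 are named in the deposited notes; the aligner and counting program: not given in the sources used here. Size selection was 350 to 450, per the labels.

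Of 69691 rows, 26345 were not Ensembl genes and had a summed count of 0; they were left out. Symbols matched 42462 Ensembl genes. Coordinates, exons and sequences came from GENCODE M21 (GRCm38), a different release, which holds all 87 Hox transcripts, 85 of them at the same length. Expected counts were rounded. TMM sizes came from edgeR 4.0.16 and median-of-ratios factors from DESeq2 1.42.0 in R 4.3.3. With 1 library on each side no model has residual degrees of freedom, so the exact binomial test (scipy 1.17.1; Python 3.11.15; summed count of at least 20) was used, and log2 ratios carry a prior count of 0.5. The GC trend was a lowess curve (statsmodels 0.14.6, span 0.3) over genes with at least 50 counts, on the length-weighted GC content of a gene's transcripts, known for 99.7% of tested genes. Nuclear copies of mitochondrial genes were found with BLAST 2.17.0 (90% identity over 50% of the length). The calculations were tested on simulated data.

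Named were each Hox gene with at least 1 TPM in both libraries or 10 counts in a library, the other Hox genes by name, and in each list the 4 members of highest mean TPM and the lowest; a few genes and sequences that this rule takes in are not reported here. The members and lists were chosen with earlier results of these data known. Alternatives were other detection limits, units, scalings and count filters, leaving out a library, and removal of GC and length trends.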

Additional observations from a re-analysis of the deposited data

How the results depend on the processing

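The test speaks for 2 libraries of 1 sample, and depth limits genes under about 10 counts. No paired analysis was possible because both libraries belong to 1 group and 1 biological sample. The number of detected Hox genes ran from 12 (at least 2 TPM) to 19 (nuclear TPM, or 10 counts), and 27 had any count in both libraries. Leaving out each library in turn gave 14 to 18 detected genes, a Hoxb share of 72.5% to 76.8%, a Hoxb9 share of 35.1% to 44.2% and a Hoxb9-201 share of 0.45% to 58.7%; Hoxb9-201 leads only without replicate 1.

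Calls higher in replicate 2 numbered 8 by total count, 5 by adjusted p alone and 0 with the GC trend, the length trend or both removed, or with GC weighted by transcript TPM, an alternative chosen after seeing the data. Calls lower numbered 1, 10, 17, 11, 18 and 16 for total count, adjusted p alone, GC, length, both trends and weighted GC. Of all genes, 54.1% were called higher and 3.95% lower by total count, and 12.6% and 12.3% with the GC trend removed. For the other settings named here the share of all genes was not computed, so those Hox counts cannot be read as particular to Hox genes. Median-of-ratios factors, TMM over nuclear genes and no count filter each lost the Hoxa4 call.

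Signs turned negative with the GC trend, weighted GC and both trends removed: Hoxb6 (-2.05, -2.30, -2.20), Hoxa4 (-2.35, -2.34, -2.57), Hoxb5 (-0.43, -0.73, -0.49), Hoxd9 (-4.93, -4.96, -4.98), Hoxb8 (-3.10, -1.86, -3.12) and Hoxb2 (-2.21, -2.56, -2.39). So did Hoxa7 (-1.78, -0.67, -1.89) and Hoxc5 (-0.65, -0.28, -0.60). Total count turned Hoxa5 (0.13), Hoxb9 (0.51), Hoxb7 (0.48), Hoxb3 (0.39), Hoxc6 (0.74), Hoxb4 (0.97), Hoxa3 (0.56), Hoxd4 (0.73) and Hoxa2 (0.82) positive. Removing the length trend turned Hoxa7 (-0.10), Hoxb2 (-0.69), Hoxb8 (-0.20), Hoxc5 (-0.05) and Hoxd9 (-0.26) negative. Hoxc8 lost its call with the GC trend, weighted GC and both removed (-0.92, -0.96, -0.98) and by total count (-0.26). Total count also lost the lower calls of Hoxa5, Hoxd8 (-0.05), Hoxc4 (-0.37) and Hoxc10 (-1.17), and Hoxa9 (-1.78) kept its call. The cause was not tested.

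The lists had 8 TALE cofactors, 22 chromatin regulators, 9 retinoic acid genes, 4 non-coding genes and 6 cluster neighbours tested. With the GC trend removed, calls higher were 0, 0, 1, 0 and 1 in that order (all genes 12.6%). Calls lower were 1, 5, 3, 2 and 1 (all genes 12.3%). By total count, calls higher were 4, 13, 7, 3 and 3 (all genes 54.1%). Calls lower by total count were 0 in each list (all genes 3.95%).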
